A study of Homo sapiens with 15 samples.

Results

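RNA-seq counts of 10 genes of iron storage, iron uptake and heme breakdown were followed across A549 cells held in high or normal oxygen. The genes were chosen by symbol, with earlier results of these data known. They are FTL and FTH1, which encode the light and heavy chains of ferritin, TFRC, SLC40A1, SLC11A2, HMOX1, NCOA4, IREB2, ACO1 and BLVRB. All 10 were among the 43388 genes counted, and all 10 were among the 15339 genes that passed the filter on low counts. A549 is a line of human lung adenocarcinoma cells with alveolar epithelial features, labelled wild type. Cells were first given 1e-05 mM all-trans retinoic acid (ATRA) or its ethanol vehicle for 24 h, or neither of them by their labels, and were then kept for 72 h in 95% oxygen (hyperoxia) or 21% oxygen (normoxia). The 6 groups were hyperoxia with vehicle (2 libraries), with ATRA (3 libraries) and with no vehicle (2 libraries), and normoxia with the same treatments (2, 3 and 2 libraries). The labels do not say whether libraries of a group came from separate cultures, so the p-values measure the spread between these libraries, which may be technical. A single cancer cell line was used, and bulk RNA cannot tell fewer cells that express a gene from less RNA of that gene per cell.

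Iron enters most cells bound to transferrin through the transferrin receptor, encoded by TFRC, and leaves the endosome through SLC11A2. Iron that is not used is stored inside ferritin shells made of FTL and FTH1 chains, is released when NCOA4 carries ferritin to lysosomes, and leaves the cell through SLC40A1, or ferroportin. HMOX1 opens the heme ring and frees its iron, and BLVRB is a biliverdin and flavin reductase. The proteins of ACO1 and IREB2 bind iron-responsive elements (IREs), short hairpins in messenger RNAs, when iron is scarce. Binding in the 5′ untranslated region blocks translation, as in ferritin, while binding in the 3′ untranslated region protects the message, as in TFRC. Ferritin and HMOX1 are also classic targets of the oxidative stress factor NRF2 and of its competitor BACH1.

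The hairpins are shown first, because their place in the message separates ferritin and ferroportin from the transferrin receptor. Canonical protein-coding transcripts of GENCODE 44 were read on the sense strand for an unpaired C, a stem of 5 pairs, the 6-base loop CAGTGN, and 3 further pairs below the C, with G-T pairs allowed. This pattern was present in 27 of 20046 transcripts (0.135%), and 4 of the 10 members held it. FTL, FTH1 and SLC40A1 each had 1 hairpin in the 5′ untranslated region, and TFRC had 4 in the 3′ untranslated region. Each is printed 5′ to 3′ with 28 bases in DNA letters, and capitals mark the loop. The positions, on hg38, are chr19:48965335-48965362 on the plus strand for FTL, chr11:61967575-61967602 on the minus strand for FTH1, chr2:189580662-189580689 on the minus strand for SLC40A1, and, on the minus strand for TFRC from the first to the last, chr3:196050980-196051007, chr3:196050576-196050603, chr3:196050511-196050538 and chr3:196050464-196050491.
FTL: ctcttgcttcaaCAGTGTttggacggaa
FTH1: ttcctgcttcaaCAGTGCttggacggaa
SLC40A1: caacttcagctaCAGTGTtagctaagtt
TFRC, hairpin 1: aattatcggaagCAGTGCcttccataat
TFRC, hairpin 2: cattatcgggagCAGTGTcttccataat
TFRC, hairpin 3: ctgtatcggagaCAGTGAtctccatatg
TFRC, hairpin 4: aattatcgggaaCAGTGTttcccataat

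The other 6 members, SLC11A2 among them, had no match to these letters in their canonical transcript, which says only that this exact pattern is not there. Other transcripts of these genes were not searched, so an element in them would have been missed. A match describes the sequence, and whether a protein bound it was not measured.

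Each library held 2642377 to 5605072 counts assigned to genes, so that 3 counts, the smallest number taken as detected, corresponded to between 0.535 and 1.14 CPM, that is counts scaled to a common library total. One library stood apart. Hyperoxia with no vehicle replicate 1 had counts on 12657 genes, against 16465 to 20108 in the other 13. Results of the members are given with and without this library where they rest on it. The other genes of the pathway are given only with it. The epithelial keratins KRT8 and KRT18 were present in all 14 libraries and were lower in hyperoxia, at 1133 to 2830 CPM against 3474 to 5913 CPM for KRT8. EPCAM had at most 24 counts, the alveolar surfactant genes SFTPC, SFTPA1 and SFTPB at most 4, and the erythroid genes HBB, HBA1 and HBA2 at most 1, so no signal of red cell precursors, which are rich in heme and ferritin, was seen. The macrophage gene CD68 was higher in hyperoxia, at 60.4 to 103 CPM against 17.4 to 32.8 CPM, while the leukocyte gene PTPRC had at most 1 count, and the part of CD68 or the keratins in the results was not tested. CDKN1A, a target of p53, lay between 963 and 1140 CPM in hyperoxia and between 65.0 and 107.8 CPM in normoxia. CYP26B1, which degrades retinoic acid, lay between 373 and 858 CPM with ATRA and between 35.3 and 98.5 CPM without it. Both genes thus followed the labels in every library. DHRS3, also checked for ATRA, did so too, with 183 to 264 CPM with ATRA and 50.4 to 85.1 CPM without it. STRA6, the last gene of that check, overlapped, with 165 to 403 CPM against 41.3 to 206 CPM.

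Hyperoxia against normoxia was compared within each treatment, in groups that share no library, and as the mean of the 3 treatments. Ferritin and heme oxygenase rose in hyperoxia under every treatment. In the mean over treatments FTL was 2.04-fold higher, FTH1 2.29-fold higher and HMOX1 2.95-fold higher, TFRC and NCOA4 rose by smaller amounts, and IREB2 fell. SLC40A1, SLC11A2, ACO1 and BLVRB did not pass the test. Thus 5 of 10 members were called higher and 1 lower in the mean contrast, where 31.1% of all tested genes were called, 15.5% higher and 15.5% lower. The median log2 fold change was 0.33 over the members and -0.03 over all genes. Because the members were chosen with earlier results of these data known, these shares and medians are a description only. Members called, all of them higher, numbered 4 with vehicle, 3 with ATRA and 3 with no vehicle, where 9.26%, 12.9% and 15.2% of tested genes were called. Called means an edgeR quasi-likelihood adjusted p-value under 0.05. FTL, FTH1 and HMOX1 were the members called higher in each of the 3 treatments, and 2.88% of tested genes met that rule. The same 3 genes were higher in all 7 hyperoxia libraries than in all 7 normoxia libraries, a separation shown by 6.34% of tested genes.

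**Figure D1:**
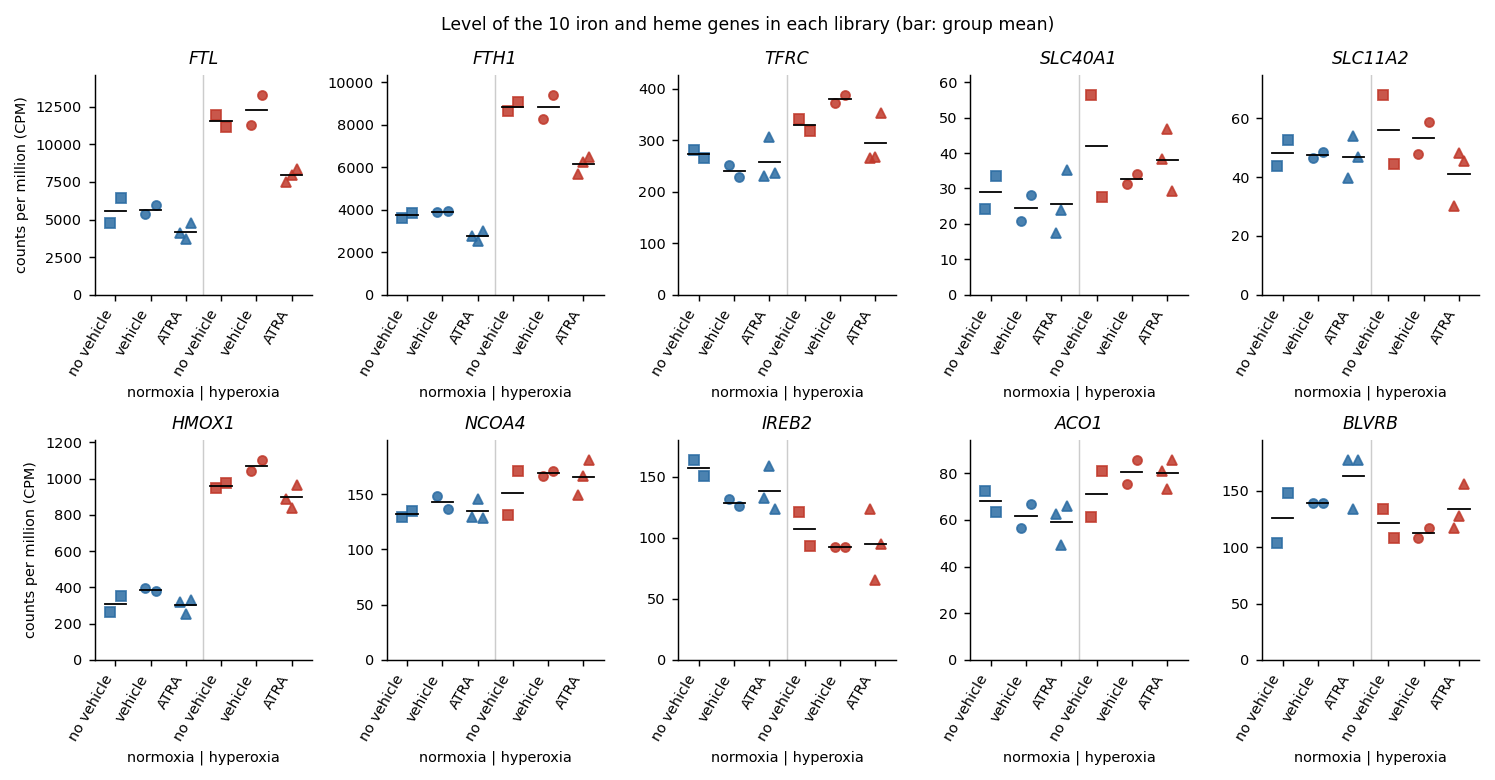
Level of each of the 10 genes in CPM (vertical axis, from 0, a scale for each gene) in the 6 groups, with normoxia in blue and hyperoxia in red, 1 point per library and a bar at the group mean. For FTL, FTH1 and HMOX1 every hyperoxia library lies above every normoxia library, for IREB2 every hyperoxia library lies below, and for the other 6 genes the points overlap.

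The heavy chain of ferritin, FTH1 (chromosome 11, 61964285 to 61967634, RefSeq on GRCh38.p14), carries the ferroxidase site that oxidizes iron for storage. In hyperoxia FTH1 measured 8285 and 9427 CPM with vehicle, 8665 and 9061 CPM with no vehicle, and 5664, 6255 and 6489 CPM with ATRA. In normoxia the values were 3886 and 3935 CPM, 3614 and 3866 CPM, and 2771, 2511 and 2984 CPM in the same order of treatments. The lowest hyperoxia library, which received ATRA, was still above the highest normoxia library. The log2 fold change was 1.18 with vehicle (SE 0.128, adjusted p = 1.84e-05), 1.15 with ATRA (SE 0.105, adjusted p = 2.63e-06) and 1.25 with no vehicle (SE 0.128, adjusted p = 1.13e-05) in the edgeR test. The mean over treatments was 1.19 (SE 0.070, adjusted p = 4.26e-09). Without the library that stood apart, the change with no vehicle was 1.27 (adjusted p = 3.04e-06).

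FTL (chromosome 19, 48965309 to 48966879), the light chain, which helps iron form its mineral core, followed FTH1. FTL measured 11290 and 13320 CPM with vehicle, 11980 and 11140 CPM with no vehicle, and 7485, 7946 and 8380 CPM with ATRA in hyperoxia. The normoxia values were 5353 and 5981 CPM, 4745 and 6413 CPM, and 4071, 3705 and 4775 CPM. The 2 ranges were apart, and the 3 ATRA libraries were the lowest of the hyperoxia libraries. FTL rose by log2 fold changes of 1.12 with vehicle (SE 0.162, adjusted p = 0.000282), 0.92 with ATRA (SE 0.131, adjusted p = 0.000202) and 1.05 with no vehicle (SE 0.161, adjusted p = 0.000395). The mean was 1.03 (SE 0.0878, adjusted p = 2.42e-07). Without the library that stood apart, the change with no vehicle was 0.99 (adjusted p = 0.000413). When only the 4 libraries with no vehicle were fitted, that change had an adjusted p of 0.0963.

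Together the ferritin chains took 1.30% to 2.34% of all counts on genes in hyperoxia, with a median of 1.92%, and 0.630% to 1.03% in normoxia, with a median of 0.810%. Ranked by count among all genes, FTH1 took places 4 to 6 in the hyperoxia libraries and places 10 to 18 in normoxia. FTL took places 3 to 5 in hyperoxia and 3 to 9 in normoxia. The ratio of FTL to FTH1 counts lay between 1.23 and 1.41 in hyperoxia and between 1.31 and 1.66 in normoxia, and these ranges overlap. The processed pseudogene FTH1P3 held at most 0.164% as many counts as FTH1 in any library, and FTH1P18 and FTLP10 held 0. Whether reads shared with other pseudogene copies were counted was not stated, and 7.83% to 8.91% of reads were not uniquely aligned.

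**Figure D2:**
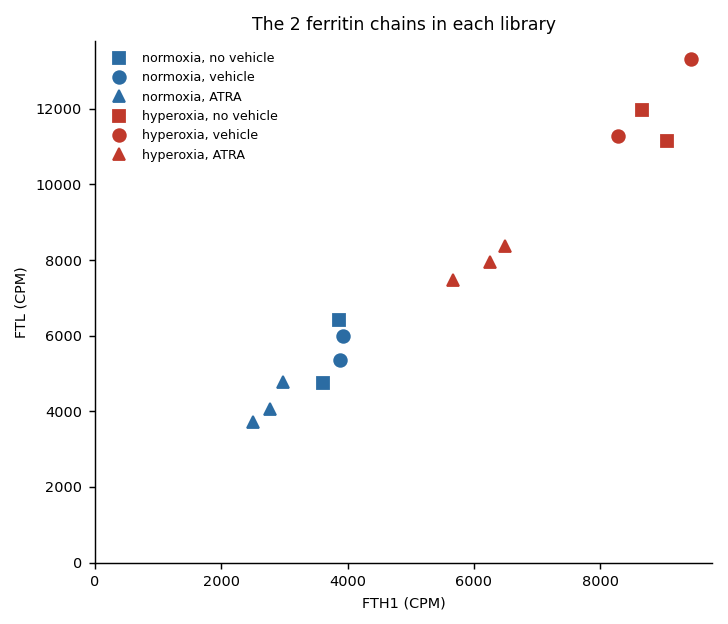
FTL (vertical axis, CPM) against FTH1 (horizontal axis, CPM) in the 14 libraries, blue for normoxia and red for hyperoxia, with squares for no vehicle, circles for vehicle and triangles for ATRA. The 2 chains move together, the hyperoxia libraries lie above and to the right of all normoxia libraries, and within hyperoxia the 3 ATRA libraries lie between the normoxia libraries and the other 4.

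HMOX1 (chromosome 22, 35381096 to 35394207), the inducible heme oxygenase, had the largest mean oxygen effect of the 10 members. HMOX1 measured 1040 and 1103 CPM with vehicle, 947 and 976 CPM with no vehicle, and 889, 839 and 963 CPM with ATRA in hyperoxia. In normoxia it measured 396 and 380 CPM, 265 and 353 CPM, and 320, 256 and 328 CPM. The lowest hyperoxia library, at 839 CPM, was well above the highest normoxia library, at 396 CPM. The log2 fold change was 1.47 with vehicle (SE 0.153, adjusted p = 1.39e-05), 1.57 with ATRA (SE 0.125, adjusted p = 7.27e-07) and 1.64 with no vehicle (SE 0.153, adjusted p = 4.37e-06). The mean was 1.56 (SE 0.0835, adjusted p = 1.56e-09), and the change with no vehicle was 1.66 without the library that stood apart (adjusted p = 5.97e-07). When only the 4 libraries with no vehicle were fitted, its adjusted p was 0.0527.

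BLVRB (chromosome 19, 40447768 to 40465745), the biliverdin and flavin reductase, did not pass the test. BLVRB ranged from 107.9 to 156 CPM in hyperoxia, median 117 CPM, and from 104 to 177 CPM in normoxia, median 139 CPM. The ranges overlapped, and the mean log2 fold change was -0.21 (95% interval -0.44 to 0.02, adjusted p = 0.155). The change was -0.32 and passed without normoxia with no vehicle replicate 1 (adjusted p = 0.0397), and the vehicle difference passed with only its 2 groups fitted (adjusted p = 0.0393).

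TFRC (chromosome 3, 196049284 to 196082090) rose in hyperoxia by a smaller amount, 1.30-fold in the mean over treatments (log2 fold change 0.38, SE 0.089, adjusted p = 0.00399). With vehicle TFRC measured 372 and 389 CPM in hyperoxia against 251 and 230 CPM in normoxia, and the difference passed the test (log2 fold change 0.67, SE 0.164, adjusted p = 0.0160). With no vehicle it measured 342 and 318 CPM against 282 and 267 CPM (log2 fold change 0.27, adjusted p = 0.287), and with ATRA 267, 268 and 353 CPM against 231, 307 and 236 CPM (log2 fold change 0.20, adjusted p = 0.4001). With vehicle and with no vehicle the 2 oxygen levels did not overlap. With ATRA they overlapped through the normoxia library at 307 CPM. The vehicle difference did not pass when any 1 of its 4 libraries was left out, with adjusted p between 0.0815 and 0.177. TFRC counts per FTH1 count lay between 0.0351 and 0.0544 in hyperoxia and between 0.0583 and 0.122 in normoxia. The receptor message was thus lower relative to the ferritin message in all 7 hyperoxia libraries. FTH1 alone separated the 2 oxygen levels and TFRC itself rose, so the lower ratio reflects the larger rise of FTH1 and no fall of TFRC.

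The other iron transporters did not pass the test. SLC40A1 (chromosome 2, 189560590 to 189580786), the only known cellular iron exporter, ranged from 27.7 to 56.5 CPM in hyperoxia, median 34.1 CPM, and from 17.5 to 35.1 CPM in normoxia, median 24.2 CPM. Its mean log2 fold change was 0.51 (SE 0.207, adjusted p = 0.0739), on 60 to 283 counts per library. The highest SLC40A1 value was in the library that stood apart, and without it the change with no vehicle went from 0.56 to -0.06, while without the other hyperoxia library with no vehicle it was 0.92 and passed (adjusted p = 0.032). The mean ranged from 0.30 to 0.61 when 1 library was left out, and it passed without that other library (adjusted p = 0.00502) or normoxia with ATRA replicate 3 (adjusted p = 0.0373). SLC11A2 (chromosome 12, 50952263 to 51028886), the endosomal iron transporter, ranged from 30.1 to 68.1 CPM in hyperoxia and from 39.7 to 54.0 CPM in normoxia. Its mean log2 fold change was 0.07 (95% interval -0.25 to 0.38, adjusted p = 0.775), and it was -0.05 without hyperoxia with no vehicle replicate 1.

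NCOA4 (chromosome 10, 46005088 to 46030623), the receptor that delivers ferritin to lysosomes, was 1.19-fold higher in hyperoxia in the mean over treatments. It ranged from 131 to 181 CPM in hyperoxia, median 167 CPM, and from 128 to 148 CPM in normoxia, median 135 CPM. The ranges overlapped, and only the mean contrast passed the test (log2 fold change 0.25, SE 0.0835, adjusted p = 0.0341). The call was lost in 10 of 14 fits that left out 1 library, and it remained only without hyperoxia with ATRA replicate 1 or replicate 2, hyperoxia with no vehicle replicate 1, or normoxia with ATRA replicate 2.

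IREB2 (chromosome 15, 78437431 to 78501453), which encodes iron regulatory protein 2, was the member that fell. IREB2 measured 92.3 and 92.2 CPM with vehicle, 122 and 93.2 CPM with no vehicle, and 124, 65.4 and 95.4 CPM with ATRA in hyperoxia. In normoxia it measured 132 and 126 CPM, 164 and 150 CPM, and 133, 159 and 124 CPM. All 7 hyperoxia libraries were below all 7 normoxia libraries, a separation shown by 7.31% of tested genes, although the highest hyperoxia and the lowest normoxia library, both with ATRA, were close at 123.5 and 123.9 CPM. The mean log2 fold change was -0.52 (SE 0.123, adjusted p = 0.00399), and -0.59 without the library that stood apart (adjusted p = 0.000421). The single treatments gave -0.48 with vehicle (adjusted p = 0.243), -0.53 with ATRA (adjusted p = 0.0719) and -0.55 with no vehicle (adjusted p = 0.115), none of which passed alone in this fit. The ATRA difference passed in 4 of 6 alternatives, DESeq2 among them (adjusted p between 0.00696 and 0.0458), and without hyperoxia with ATRA replicate 1 or either hyperoxia library with no vehicle (adjusted p between 0.0143 and 0.0215). The vehicle difference passed with only its 2 groups fitted (adjusted p = 0.0019), and the no-vehicle difference without the filter (adjusted p = 0.0315).

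ACO1 (chromosome 9, 32384643 to 32454769), which encodes cytosolic aconitase, or iron regulatory protein 1 when it lacks its iron-sulfur cluster, did not pass the test. It ranged from 61.1 to 85.7 CPM in hyperoxia, median 80.8 CPM, and from 49.3 to 72.5 CPM in normoxia, median 63.6 CPM. The mean log2 fold change was 0.29 (95% interval 0.06 to 0.52, adjusted p = 0.0545). Without the library that stood apart, which was the lowest of the hyperoxia libraries for ACO1, the mean change was 0.35 and passed. The ATRA difference in that fit was 0.43 and passed too. Without the other hyperoxia library with no vehicle the mean change was 0.18, and the change with no vehicle went from 0.05 to -0.21. The ATRA difference passed in edgeR with only the 10 vehicle and ATRA libraries fitted (adjusted p = 0.0434). The vehicle difference passed with only its 2 groups fitted (adjusted p = 0.0461). In the main fit these adjusted p-values were 0.102 and 0.313.

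Read against the hairpins above, FTH1 and FTL, with a 5′ element, rose, and SLC40A1, with the same kind of element, had a mean log2 fold change of 0.51 that did not pass. TFRC, with 4 elements in the 3′ region, rose. These values are levels of messenger RNA, and neither the binding of the elements nor the proteins were measured.

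**Figure D3:**
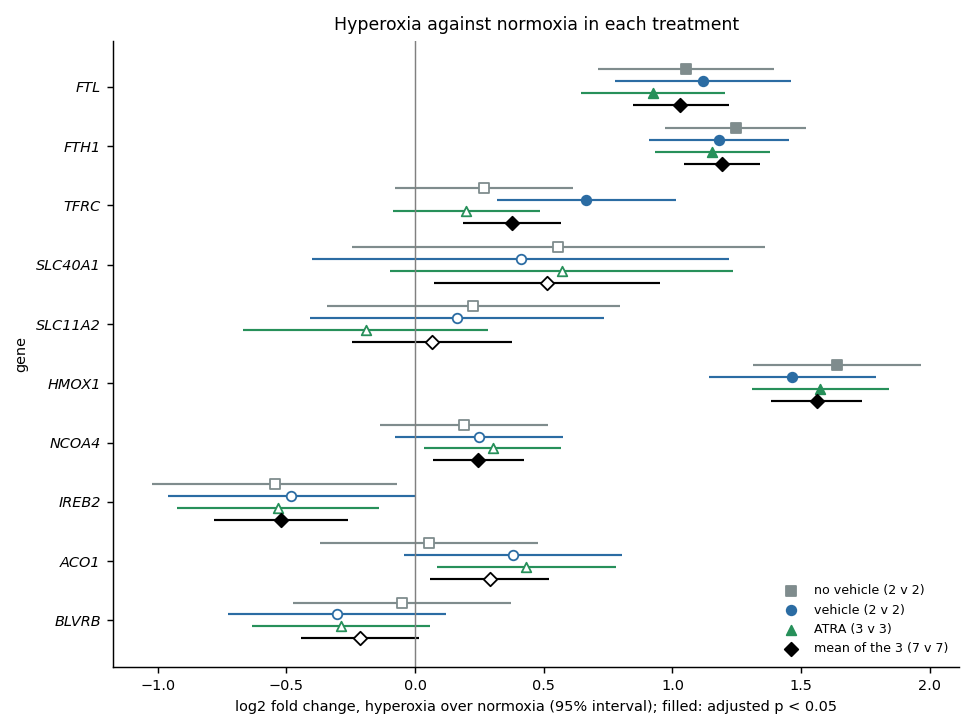
Log2 fold change of hyperoxia over normoxia (horizontal axis, with 95% intervals) for each gene with no vehicle, vehicle and ATRA and in the mean of the 3, with filled symbols where the adjusted p-value is under 0.05. FTL, FTH1 and HMOX1 lie to the right of 0 under every treatment, from 0.92 to 1.64, and IREB2 lies to the left, from -0.48 to -0.55.

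Per kilobase of exon sequence, the order of levels among the members was led by FTL, with a hyperoxia median of 12790 CPM per kilobase, then FTH1 with 4134 and HMOX1 with 418, and the same 3 genes led in normoxia with 5482, 1803 and 142. SLC11A2 was last in both, with 4.82 and 4.74 CPM per kilobase. With the longest transcript in place of all exons, FTH1 came to 6887 CPM per kilobase in hyperoxia, the 3 leading genes stayed in the same order, and SLC40A1 was last with 10.2.

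ATRA was compared with vehicle at each oxygen level. Both ferritin chains had lower mean levels with ATRA at each oxygen level, and 1 of these differences, FTH1 in hyperoxia, passed the test. In hyperoxia FTH1 fell to 0.693-fold of vehicle (log2 fold change -0.53, SE 0.114, adjusted p = 0.0411), and it was the 1 member called of 10, where 0.756% of tested genes were called. FTL was at 0.645-fold and missed the threshold (log2 fold change -0.63, SE 0.144, adjusted p = 0.0565). In hyperoxia FTH1, FTL and TFRC had an unadjusted edgeR p under 0.05, as did 1215 of the 15339 tested genes. TFRC had a log2 fold change of -0.36 there (adjusted p = 0.497). The 2 vehicle libraries in hyperoxia also enter the oxygen comparison with vehicle. In normoxia no member was called by edgeR, where 0.456% of tested genes were called. An unadjusted p under 0.05 was found for 3 members, and for 802 of the 15339 tested genes. There FTH1 was at 0.705-fold (log2 fold change -0.51, SE 0.114, adjusted p = 0.0807) and FTL at 0.738-fold (log2 fold change -0.44, SE 0.145, adjusted p = 0.451). The third was HMOX1, with a log2 fold change of -0.36 (adjusted p = 0.638). DESeq2 called both ferritin genes lower with ATRA at each oxygen level, with adjusted p between 1.78e-06 and 0.0465.

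The libraries with no vehicle gave a further control. Among hyperoxia libraries, FTL lay between 7485 and 8380 CPM with ATRA and between 11140 and 13320 CPM in the 4 others, and FTH1 between 5664 and 6489 CPM against 8285 and 9427 CPM. In normoxia FTH1 lay between 2511 and 2984 CPM with ATRA and between 3614 and 3935 CPM in the others, while FTL overlapped, with 3705 to 4775 CPM against 4745 to 6413 CPM. The share of all tested genes whose ATRA libraries lay apart from the others in this way was not computed. These ranges are therefore given as a description only. Against the no-vehicle libraries alone, FTH1 in hyperoxia had a log2 fold change of -0.53 that no longer passed (adjusted p = 0.0581). Averaged over both oxygen levels, a contrast chosen after these values were seen, FTH1 was lower with ATRA by a log2 fold change of -0.52 (adjusted p = 0.0023) and FTL by -0.54 (adjusted p = 0.0112). The call for FTH1 in hyperoxia was lost when any 1 of 8 libraries was left out, namely each of the 3 hyperoxia ATRA libraries, each of the 4 vehicle libraries at either oxygen level, and normoxia with ATRA replicate 1.

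None of the other 8 members was called in either ATRA comparison. The difference between the ATRA effects at the 2 oxygen levels was tested by an interaction term, in which 0.0261% of tested genes were called and no member was called by edgeR or by DESeq2. The interaction was -0.02 for FTH1 (95% interval -0.37 to 0.32) and -0.19 for FTL (95% interval -0.63 to 0.24). An unadjusted p under 0.05 was found for 1 member, TFRC, and for 542 of the 15339 tested genes. The interaction for TFRC was -0.47 (adjusted p = 1 in edgeR). Its log2 fold change with ATRA was 0.10 in normoxia and -0.36 in hyperoxia. Against the no-vehicle libraries the interaction for TFRC was -0.07, and the change with ATRA was -0.09 in normoxia and -0.16 in hyperoxia.

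**Figure D4:**
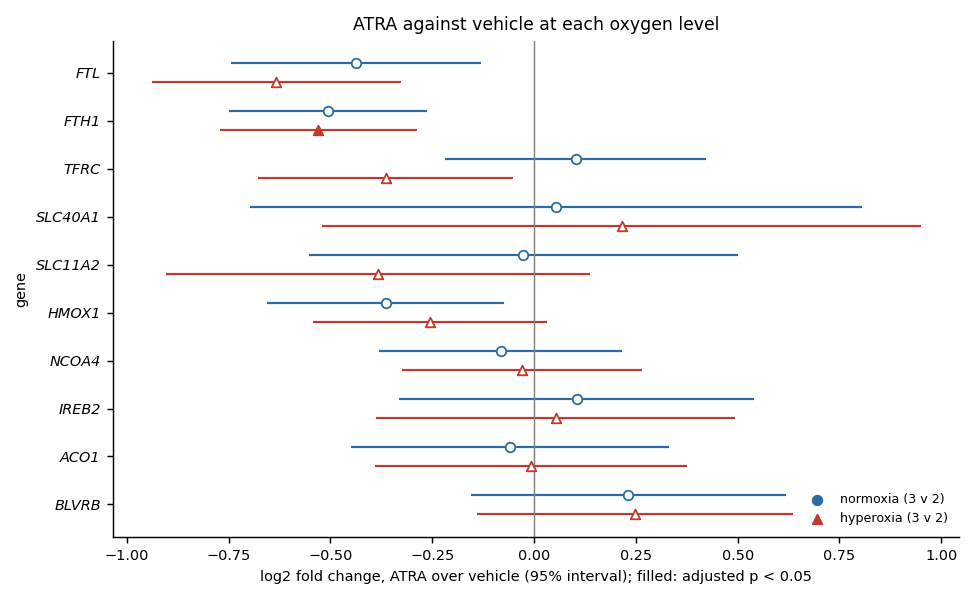
Log2 fold change of ATRA over vehicle (horizontal axis, with 95% intervals) for each gene in normoxia (blue circles) and hyperoxia (red triangles), with filled symbols where the adjusted p-value is under 0.05. FTL and FTH1 lie to the left of 0 at both oxygen levels, from -0.44 to -0.63, and FTH1 in hyperoxia is the only filled point.

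Other genes of the pathway were taken from 8 lists of iron and heme genes, 65 genes in all. Of the 59 that passed the filter, 12 rose and 13 fell in the mean oxygen contrast, and the median of their log2 fold changes was 0.03, where all tested genes had -0.03 and 31.1% of them were called. The 6 genes below the filter had at most 13 counts in any library and included the hormone HAMP and the ferroxidase HEPH, both at 0.

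Of 6 regulators of ferritin and heme oxygenase transcription, 4 rose and none fell, with a median log2 fold change of 0.43. BACH1, the heme-binding repressor of HMOX1, ranged from 25.3 to 125 CPM in hyperoxia and from 14.4 to 22.8 CPM in normoxia (log2 fold change 1.40, SE 0.254, adjusted p = 0.000506). KEAP1, which marks NRF2 for degradation, rose by 0.53 (adjusted p = 0.00404), and MAFF, a small partner of NRF2 and BACH1, by 1.71 (adjusted p = 0.00467) from at most 5.74 CPM in normoxia. MAFG, named after its value was seen, also rose by 0.32 (adjusted p = 0.0075). NFE2L2, which encodes NRF2, had a log2 fold change of 0.22 that did not pass (adjusted p = 0.0693), and it too is named after its value was seen.

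Of 10 genes of uptake and intracellular trafficking, 2 rose and 2 fell. LRP1, an endocytic receptor that takes up heme bound to hemopexin, ranged from 205 to 435 CPM in hyperoxia against 107 to 137 CPM in normoxia (log2 fold change 1.17, adjusted p = 3.31e-08). It was also higher with ATRA than with vehicle in hyperoxia (log2 fold change 0.90, adjusted p = 0.0039). SLC39A14, an importer of iron not bound to transferrin, rose by 0.55 (adjusted p = 8.45e-05). LCN2, which binds iron through siderophores, fell in the mean contrast, although its ranges overlapped. It had 0 counts in both hyperoxia libraries with no vehicle against 5 in each normoxia library with no vehicle, and 2 and 3 counts against 4 and 9 with vehicle. With ATRA it measured 4.21 to 11.4 CPM in hyperoxia and 11.6 to 18.2 CPM in normoxia. The other gene that fell was TF, transferrin, named after its values were seen, with 0 to 7 counts in a hyperoxia library and 3 to 53 in a normoxia library. No gene of storage and chaperones rose, and 1 of 3 fell, PCBP1, an iron chaperone for ferritin (log2 fold change -0.37, adjusted p = 0.000338).

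Of 4 genes of export and its control, none rose and 3 fell. HFE, which binds the transferrin receptor, lay between 5.30 and 17.98 CPM in hyperoxia and between 20.3 and 23.5 CPM in normoxia (log2 fold change -1.11, adjusted p = 0.000956). CP, the ferroxidase ceruloplasmin, fell by 1.09 on the log2 scale (adjusted p = 0.00102), and BMP6, a ligand that induces hepcidin in liver, by 0.72 (adjusted p = 0.00437). Of 5 further genes of iron sensing or with an IRE, 2 rose and 1 fell. EPAS1, the hypoxia factor HIF-2α, was among those that rose (log2 fold change 0.67, adjusted p = 7.12e-05), and the gene that fell was CDC42BPA, a kinase (-0.34, adjusted p = 0.0063).

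Of 8 enzymes of heme synthesis, 1 rose and 2 fell. UROS rose by 0.54 (adjusted p = 0.00187), and FECH, which inserts iron into heme, was among those that fell, by 0.45 on the log2 scale (adjusted p = 0.0367). Of 9 genes of heme breakdown and transport, 1 rose and 3 fell. SLC48A1, which moves heme out of lysosomes, ranged from 119 to 216 CPM in hyperoxia against 50.1 to 76.7 CPM in normoxia (log2 fold change 1.31, adjusted p = 1.13e-07). ABCG2, an exporter of heme and porphyrins, ranged from 23.9 to 68.5 CPM against 98.8 to 167 CPM (log2 fold change -1.57, adjusted p = 2.34e-08), and in hyperoxia it was higher with ATRA than with vehicle (log2 fold change 1.11, adjusted p = 0.00849). BLVRA, biliverdin reductase A, fell by 0.56 on the log2 scale (adjusted p = 0.0197). The third gene that fell was ABCB6, a porphyrin transporter, named after its value was seen (log2 fold change -0.42, adjusted p = 0.0488).

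Of 14 genes of iron-sulfur cluster assembly, 2 rose and 1 fell. ISCU, the scaffold on which clusters are built, rose by 0.76 (adjusted p = 0.000245), ISCA1, which passes clusters on, by 0.77 (adjusted p = 0.00356), and GLRX5, a carrier of clusters, fell by 0.86 on the log2 scale (adjusted p = 0.000408). The spans of TF, CP, BMP6, SLC48A1 and MAFF overlap another annotated gene with at least 10% as many counts, and how reads in the overlap were assigned was not stated. Among the 10 members, no overlapping gene reached that share, the highest being 0.459% for SLC11A2.

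**Figure D5:**
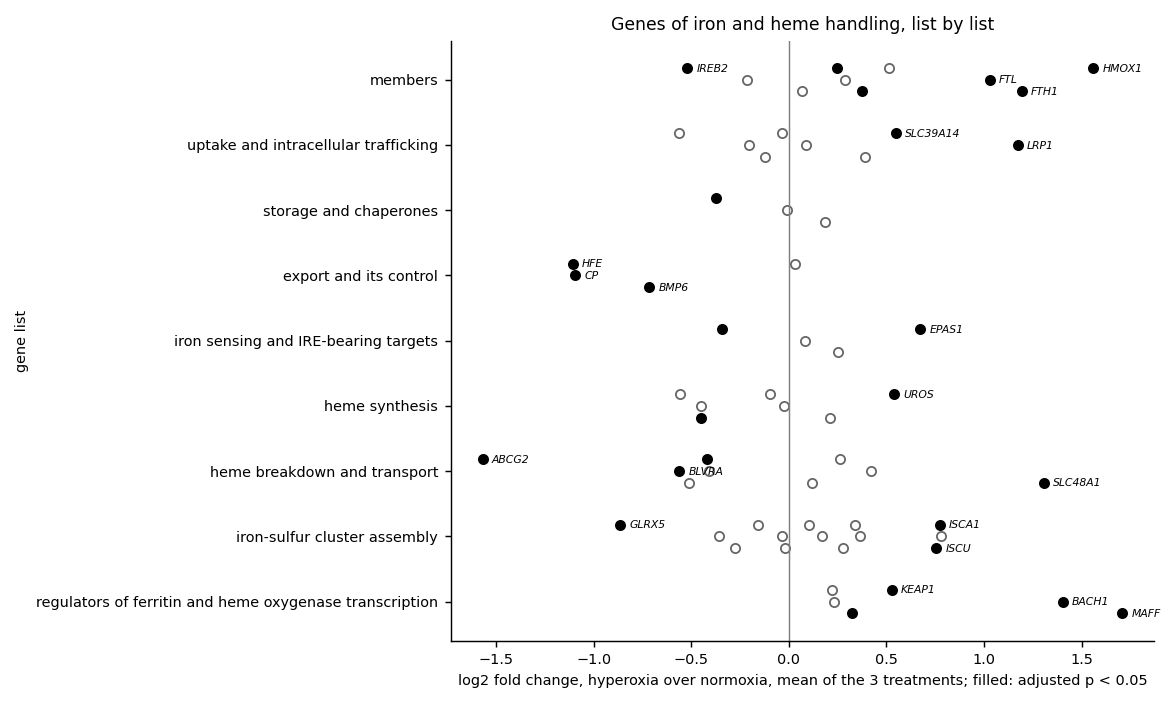
Log2 fold change of hyperoxia over normoxia in the mean of the 3 treatments (horizontal axis) for the members and the 8 lists, 1 point per gene that passed the filter, filled where the adjusted p-value is under 0.05 and named where the change is also beyond 0.5 in either direction. LCN2 and TF, with 0 counts in a whole group, and 2 genes that are not reported here are left out. The export list lies mainly to the left and the regulators lie to the right of 0, while the other lists fall on both sides.

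The genes whose log2 CPM followed each member most closely over the 14 libraries are given as a description, since all of these correlations share the oxygen difference and the libraries. FTL was closest to FTH1 (Pearson r = 0.986), then to SHC1, a signalling adaptor (r = 0.983), and TNFRSF10D, a decoy receptor for TRAIL (r = 0.972). FTH1 was closest to PTGR1, a prostaglandin reductase known as an NRF2 target (r = 0.990), then to SHC1 (r = 0.988) and FTL. HMOX1 was closest to ADM, adrenomedullin (r = 0.989), TNFRSF10B, a TRAIL receptor (r = 0.988), and FOSL1, an AP-1 subunit (r = 0.987). The closest genes to the other 7 members had r between 0.845 and 0.949, among them RAB23 for TFRC (r = 0.920), the mitochondrial transfer RNA genes TRNS2 and TRNH for IREB2 (r = 0.949 and 0.946), and ZNF48 for NCOA4 (r = 0.924).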

How the data were processed

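RNA was extracted with RNA-Bee and made into stranded libraries. Per the submitters' notes and the study's methods, the authors used Trimmomatic 0.38 for trimming, HISAT2 for alignment to hg38 and HTSeq for counting by gene symbol, whose versions, annotation, strand and overlap settings are not given in the sources used here. The deposited values are raw counts per gene, without normalization, for 15 libraries. The 5 summary rows of each file were left out of library sizes, and reads outside genes made up 48.6% to 55.3% of all reads counted. One library, whose title and treatment label name different treatments, was assigned to no group.

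The main tool was edgeR 4.0.16 (R 4.3.3). Genes were filtered with filterByExpr (minimum count 10, minimum total count 15), normalized by TMM, and fitted by a quasi-likelihood model of 6 groups in 14 libraries. P-values were adjusted by the Benjamini-Hochberg method over the 15339 genes tested, and genes with adjusted p under 0.05 were called. CPM are TMM-normalized, and likeness used log2 CPM with a prior count of 2. The test was run on simulated data first. Intervals are 95% intervals of the fit, and the depth floor covers counting error only. No 2 libraries of a group agreed within sampling noise (chi-square per degree of freedom between 3.85 and 30.5).

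All 10 members are named. From each list at most 3 genes with the smallest p-value among those called, and any called in an ATRA contrast, are named, with exceptions stated. Some of the genes on the lists count in the totals but are not reported here by name. The members and lists were chosen with earlier results of these data known. Positions come from RefSeq for GRCh38.p14, which matched all 75 symbols, and transcripts from GENCODE 44. The letters of all 7 hairpins matched hg38 at their coordinates. Alternatives were DESeq2 1.42.0, RLE size factors, no filter, fewer libraries in the fit, the library set as a term, other control groups, and leaving out each library. Python 3.11.15 and matplotlib 3.10.9 made the plots.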

Additional observations from a re-analysis of the deposited data

Results flagged for a closer look

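The library assigned to no group, titled as hyperoxia but labelled with another treatment, lay outside the comparisons and exceeded every normoxia library for 7 of the 10 members, as it did for 25.7% of all tested genes. It measured 13520 CPM for FTL against at most 6413 CPM in normoxia, 10380 CPM for FTH1 against at most 3935 CPM, and 1062 CPM for HMOX1 against at most 396 CPM. The margins were narrow for TFRC, with 313 CPM against 307 CPM, and SLC40A1, with 35.7 CPM against 35.1 CPM. NCOA4 measured 169 CPM against at most 148 CPM, and ACO1 76.9 CPM against at most 72.5 CPM. This is 1 library, and no test was made.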

How the results depend on the processing

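The oxygen calls for FTL, FTH1 and HMOX1 in the mean contrast held in every alternative, while counts of calls in single arms moved with the processing, for oxygen with no vehicle and for ATRA in particular. Without the filter, 166 genes and 2 members were called for ATRA in normoxia, 246 and 2 in hyperoxia, and 33 genes for the interaction. With DESeq2 these were 181 and 2, 300 and 2, and 48. With only the 10 vehicle and ATRA libraries, 187 genes and 1 member were called for ATRA in normoxia, 331 and 2 in hyperoxia, 21 genes for the interaction, 2616 genes for oxygen with vehicle, and 3391 genes and 5 members for oxygen with ATRA. With only the 2 groups compared, counts were 206 genes for ATRA in normoxia, 264 and 2 members in hyperoxia, 4665 and 7 members for oxygen with vehicle, and 58 and 1 member with no vehicle, where FTL and HMOX1 were lost. Against the no-vehicle libraries, ATRA in hyperoxia called 66 genes and 0 members. Against both controls, a choice made after seeing the data, ATRA called 141 genes and 1 member in normoxia and 177 and 2 in hyperoxia. Averaged over oxygen levels, also chosen after seeing the data, it called 222 and 2. A block for the library set, inferred from library numbers, gave 2 members for ATRA in hyperoxia by adding FTL (adjusted p = 0.0207), and changed no other member's call. The cause of these differences was not tested.

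When 1 library was left out, genes called ranged from 580 to 2590 for oxygen with vehicle, 1319 to 3465 with ATRA, 969 to 7364 with no vehicle, and 3692 to 8128 in the mean. They ranged from 12 to 184 for ATRA in normoxia, 22 to 306 in hyperoxia and 0 to 17 for the interaction. Members called ranged from 3 to 4, 3 to 5, 3 to 4 and 5 to 7 for oxygen in the same order, 0 to 1 and 0 to 2 for ATRA, and 0 for the interaction. SLC11A2, which did not pass, ranged from -0.054 to 0.13 in the mean contrast and was below 0 in 3 of these fits, without the first no-vehicle library of either oxygen level or the second hyperoxia vehicle library. NCOA4 lost its call without the filter (adjusted p = 0.113) and without the ATRA libraries (adjusted p = 0.167). The labels carry no shared replicate numbers, so the library set was the only block fitted. The members with the fewest counts were SLC40A1, with 60 to 283 per library, and SLC11A2, with 126 to 341.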

Other observations

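In the library assigned to no group, IREB2 measured 92.1 CPM, below the 124 CPM of the lowest normoxia library, as were 22.7% of all tested genes in that library, while SLC11A2 at 47.8 CPM and BLVRB at 144 CPM lay within the normoxia range. FTL and FTH1 were also above the highest hyperoxia library, at 13320 and 9427 CPM. The share of all tested genes above the hyperoxia range in that library was not computed.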
